A study of Mus musculus with 6 samples.

Results

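AgRP neurons were taken here as hypothalamic nuclei with at least 1000 unique molecular identifiers (UMIs, each standing for 1 captured RNA molecule), at least 2 UMIs of Agrp, at least 3 of Agrp and Npy together, and at least 2 of the neuronal genes Snap25, Syt1 and Rbfox3 together. This rule chose 1035 of the 39953 nuclei in the 6 libraries, 2.98% of the 34707 neurons. They are called Agrp-positive nuclei below, because the data showed them to be a mixture, as described after the background. The libraries came from single-nucleus RNA sequencing (nucSeq) of hypothalami of male wild-type C57Bl/6 mice aged 6 to 8 weeks. Of the 18 mice, 12 on chow had been ad libitum fed, in 2 cohorts of 6, and 6 had been fasted for 16 h overnight. Hypothalami were pooled by condition into 1 fasted and 2 ad libitum fed pools, the latter made on different days, and the sorted nuclei of each pool filled 2 tubes, 1 per library. The samples are therefore 3 pools and not 18 mice, fasting and pool cannot be told apart, and p-values over libraries measure only the spread between tubes of the same pool. Which of the fed libraries shared a pool is not in the labels. Libraries 1 and 2 resembled each other, as did 3 and 4, and they are called ad libitum fed 1+2 and 3+4.

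AgRP neurons sit in the arcuate nucleus at the base of the hypothalamus. They release agouti-related peptide, which blocks melanocortin receptors, together with neuropeptide Y and the inhibitory transmitter GABA, and their activity drives feeding. Leptin from fat and insulin restrain them, ghrelin from the stomach excites them, and their firing rises when food is withheld. The neighbouring POMC neurons release melanocortin peptides with the opposite effect on food intake. A nucleus holds mostly young, unspliced transcripts, so that these values follow RNA in the nucleus rather than messenger RNA in the cell body.

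The rule chose 147, 127, 232 and 237 nuclei in ad libitum fed libraries 1 to 4 and 140 and 152 in the fasted ones. Whole libraries held 31757655 to 59940795 UMIs. The chosen nuclei held 831778, 657639, 2300658 and 2646448 of them in ad libitum fed 1 to 4 and 1144634 and 1173191 in fasted 1 and 2. Their median depth was 4651 and 4627 UMIs in ad libitum fed 1+2, 8570 and 9138 in 3+4, and 7283.5 and 7296 in the fasted libraries, and the rule's minimum was the same at every depth. No barcode was shared by chosen nuclei of 2 libraries, and 5 of the chosen barcodes also occurred in another library.

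The label held for only some of these nuclei. The study placed 84 of 147, 87 of 127, 79 of 232, 76 of 237, 95 of 140 and 97 of 152 of them in its AgRP cluster, 518 of 1035 in all (50.0%), and it listed 193 further nuclei that missed the rule, 711 in total. In ad libitum fed 3+4 nearly all nuclei just inside the rule lay outside that cluster. Of members with exactly 2 Agrp UMIs, 0 of 69 and 1 of 70 were in the study's cluster in these libraries, against 17 of 41 and 18 of 24 in 1+2 and 10 of 16 and 9 of 14 in the fasted libraries. Of members with 10 or more Agrp UMIs, 70 of 88 and 69 of 98 were in the cluster in 3+4. Just outside the rule lay 149 nuclei with 1 Agrp UMI and enough Npy, of which 21 were in the cluster, and 952 with 2 Agrp UMIs and no Npy, of which 23 were.

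**Figure D1:**
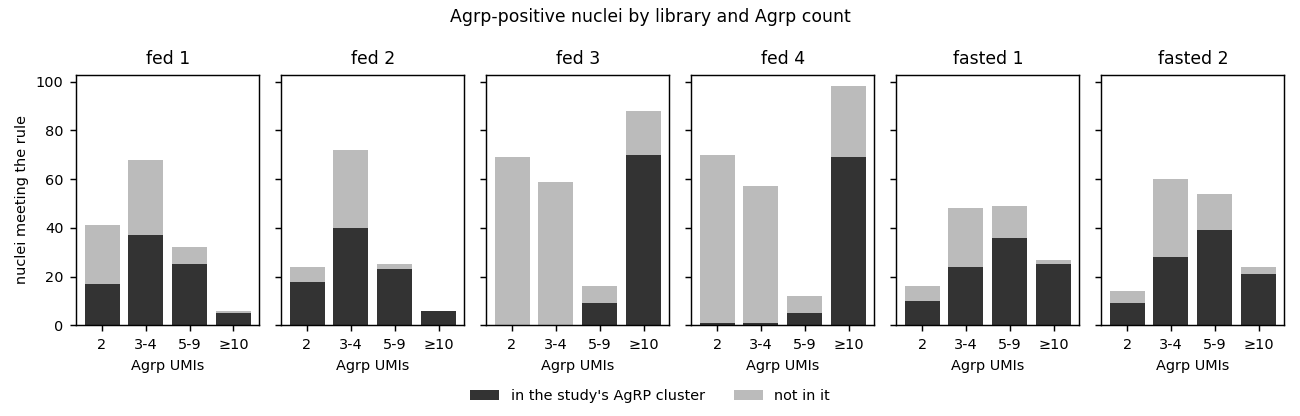
Number of Agrp-positive nuclei (y axis) by their Agrp UMIs (x axis) in each library. Dark bars are nuclei that the study placed in its AgRP cluster and grey bars are the others. In ad libitum fed 3 and 4, 69 and 70 nuclei had only 2 Agrp UMIs and 1 of them was in the cluster.

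Marker genes separated these subsets. Corin, a membrane protease and an AgRP marker, stood at 157, 209.7, 87.2 and 60.9 (fed) and 202 and 244 (fasted) CPM (UMI counts scaled to 1000000 over the summed nuclei of a library) in chosen nuclei that were in the study's cluster, and at 17.1, 3.82, 9.33 and 9.66 (fed) and 78.6 and 81.1 (fasted) in those that were not. Slc17a6, the vesicular transporter of glutamatergic neurons, was at 5.51, 7.58, 17.1 and 8.69 (fed) and 7.28 and 2.89 (fasted) CPM in the former and 83.2, 91.7, 103 and 143 (fed) and 41.5 and 37.4 (fasted) in the latter. The nuclei outside the cluster had more Slc17a6 in every library, and in ad libitum fed 3+4 they were 153 of 232 and 161 of 237 nuclei. Nuclei marked as likely doublets made up 8.12% of members and 5.86% of all neurons, and 12.4% to 28.9% of the members outside the cluster. Nuclei of another type also held Agrp. At least 1 Agrp UMI was found in 5.94% to 13.6% of oligodendrocyte-like nuclei, where the highest shares, in ad libitum fed 3 and 4, rest on 22 and 26 nuclei, and in 19.4% to 23.3% of neurons outside the rule. Because of this mixture, values for nuclei of the study's AgRP cluster are set beside the leading results. For their log2 differences, calls and interactions, other neurons and POMC nuclei were taken outside the cluster and not outside the rule. The other neurons there included the 517 chosen nuclei outside the cluster, and the POMC nuclei those of them with at least 4 Pomc UMIs. The study drew that cluster from its integrated expression data, which include these nuclei, so that its distance from other neurons is a description only. Its fasted-to-fed differences and interactions are a description too, since the paper states that fasting affected how AgRP neurons clustered.

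The 2 genes that chose the nuclei differed between the fed pools. Agrp, at chromosome 8, 105566698 to 105637393 on the minus strand of mm10, stood at 689, 801, 1432 and 1294 (fed) and 833 and 779.9 (fasted) CPM in the chosen nuclei. Npy was at 243, 298, 1525 and 1375 (fed) and 243 and 235 (fasted) CPM, and 270 members had no Npy UMI. Both were highest in ad libitum fed 3+4, and the fasted libraries lay close to 1+2. In the nuclei that were also in the study's cluster the gap was wider, with Agrp at 1030.0, 1003, 3629 and 3343 (fed) and 1083 and 967 (fasted) and Npy at 427, 452, 4513 and 4110.1 (fed) and 361 and 335 (fasted) CPM. The nuclei were chosen by their Agrp and Npy UMIs, so that these values are a description and have no test. In neurons outside the rule Agrp was at 45.7, 44.2, 27.5 and 27.8 (fed) and 34.8 and 31.1 (fasted) CPM. Libraries 3 and 4 also carried more ribosomal protein RNA, with 2.10% and 2.09% of the members' UMIs against 0.469% and 0.515% in 1+2 and 0.323% and 0.316% in the fasted libraries.

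Against all other neurons, Agrp-positive nuclei carried more RNA of Corin, Acvr1c, Lepr, Ghr, Calcr and Otp, among others, while other receptors and identity factors were lower. Other neurons were the 33672 neurons outside the rule. UMIs were summed over each pool and class and compared with edgeR's quasi-likelihood test with the pool as a block, leaving out the 5 genes of the rule. Of 13375 genes tested, 420 (3.14%) were higher and 498 (3.72%) lower at an adjusted p under 0.05. For nuclei of the study's cluster against neurons outside the cluster, as a description, 918 were higher and 1287 lower of 11060. The largest difference was in Corin (chromosome 5, 72300025 to 72504473, minus strand), whose product activates natriuretic peptides. It stood at 78.1, 128, 29.1 and 20.8 CPM in ad libitum fed libraries 1 to 4 and 153 and 177 in the fasted ones, against 3.94, 3.62, 1.62 and 1.60 (ad libitum fed) and 4.52 and 5.04 CPM (fasted) in other neurons, a log2 difference of 4.61 (standard error 0.21, adjusted p = 7.71e-05). Corin was lowest in 3 and 4, in the chosen nuclei as in those of the study's cluster (above). It was above other neurons in all 6 libraries, which was a condition of being named by size.

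Several receptors were among the 15 genes named by size. Acvr1c, the type I activin receptor ALK7 (chromosome 2, 58267453 to 58357895, minus strand), was at 68.5, 72.99, 83.5 and 69.1 CPM in ad libitum fed libraries 1 to 4 and 291 and 240.4 in the fasted ones and at 11.4, 10.1, 10.1 and 12.1 (ad libitum fed) and 14.3 and 13.6 CPM (fasted) in other neurons, a log2 difference of 3.28 (standard error 0.29, adjusted p = 9.25e-04). Ghr, the growth hormone receptor, was the most abundant of them. It stood at 916, 949, 509.9 and 461 CPM in ad libitum fed libraries 1 to 4 and 2004 and 2045 in the fasted ones, against 186, 177, 138 and 143 (ad libitum fed) and 186 and 182 CPM (fasted) in other neurons, a log2 difference of 2.5 (standard error 0.27, adjusted p = 0.00230). Lepr, the leptin receptor, differed by 2.54 (standard error 0.35, adjusted p = 0.00660) and Calcr, the calcitonin receptor, by 2.27 (standard error 0.18, adjusted p = 5.94e-04). Pgr15l, an orphan receptor gene, differed by 2.43 and Pdgfd, a platelet-derived growth factor ligand, by 2.69. For each of these genes the Agrp-positive nuclei were above other neurons in all 6 libraries, which was a condition of being named by size. The nuclei of the study's cluster lay farther from other neurons, as a description, with a log2 difference of 5.34 for Corin, 4.26 for Acvr1c, 3.31 for Ghr, 3.23 for Lepr, 3.07 for Calcr and 3.58 for Pdgfd.

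The rest had varied roles. Otp, a homeobox factor needed for arcuate neuropeptide neurons, was at 42.1, 57.8, 40.4 and 37.4 CPM in ad libitum fed libraries 1 to 4 and 60.3 and 59.7 in the fasted ones and 8.95, 9.34, 11.5 and 12.3 (ad libitum fed) and 6.67 and 6.12 CPM (fasted) in other neurons, a log2 difference of 2.38 (standard error 0.26, adjusted p = 0.00230). Within the study's cluster Otp differed by 3.10. Nr5a2, an orphan nuclear receptor, was 2.72 higher on the log2 scale and Fli1, an ETS factor, 3.15. Csgalnact1, an enzyme that starts chondroitin sulphate chains, differed by 2.81, Serpina3n, a protease inhibitor, by 2.78 and Filip1, a filamin-binding protein, by 2.55. Gm10714, a predicted gene, and Vwa5a differed by 3.45 and 3.08. The 8 named genes that were lower lay between log2 −1.46 (B230323A14Rik) and −1.20 (Brinp3). They included Bcl11b, a zinc finger transcription factor (−1.37), Gpr149, an orphan receptor (−1.29), Spon1, a matrix protein (−1.23), and Arpp21, a phosphoprotein of cAMP signalling (−1.22), with Tmem132d at −1.36 and Ust, a sulphotransferase, at −1.20. The log2 differences were larger in the study's cluster, at −3.75 for B230323A14Rik, −3.72 for Gpr149, −3.50 for Bcl11b, −3.27 for Arpp21 and −3.29 for Brinp3, and Bcl11b held 0 to 3 UMIs per library. Brinp3, the most abundant of them, stood at 662, 686, 701 and 581 (ad libitum fed) and 278 and 361 CPM (fasted) in the chosen nuclei and 162, 163, 151 and 134 (ad libitum fed) and 72.6 and 96.6 CPM (fasted) in nuclei of the study's cluster, against 1487, 1474, 977 and 988 (ad libitum fed) and 1096 and 1075 CPM (fasted) in other neurons.

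**Figure D2:**
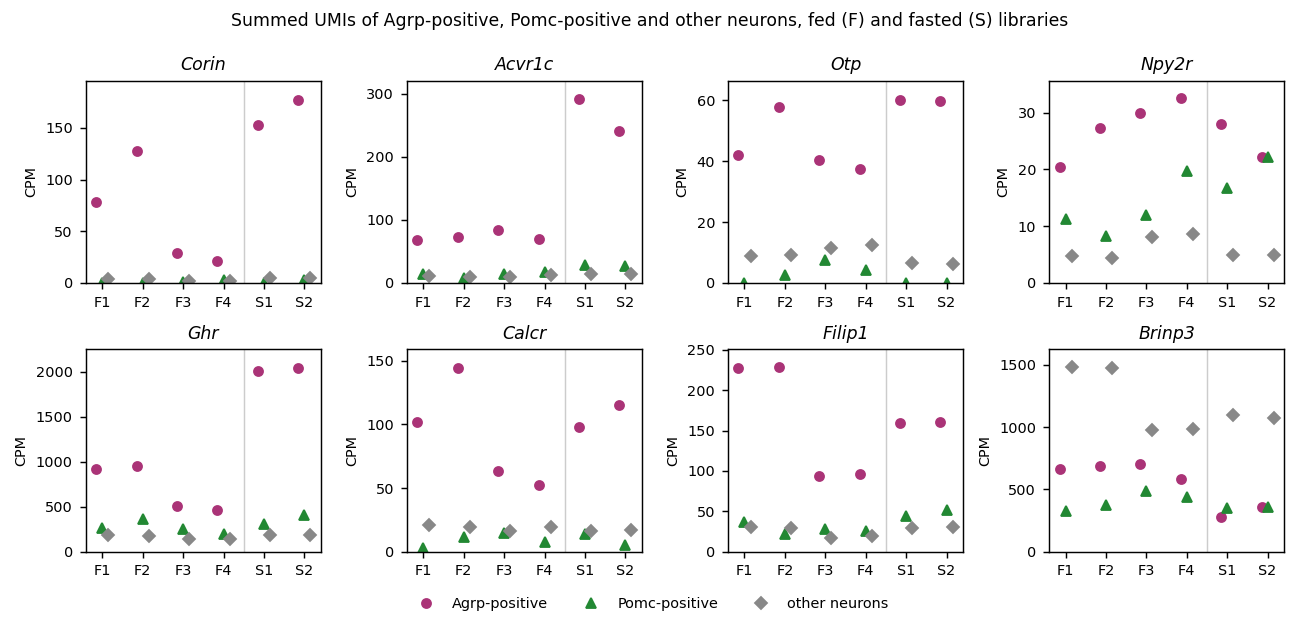
CPM (y axis) of 8 genes in each ad libitum fed (F1 to F4) and fasted (S1, S2) library, summed over Agrp-positive nuclei (circles), Pomc-positive nuclei (triangles) and other neurons (diamonds). Circles lie above diamonds in all 6 libraries for Corin, Acvr1c, Otp, Npy2r, Ghr, Calcr and Filip1 and below them for Brinp3. For all of these but Npy2r this was a condition of being named by size.

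By function, genes of leptin and insulin signalling were higher wherever they were called. The counts of this and the following lists are to be read against the 3.14% higher and 3.72% lower of all genes tested. Of 28 leptin and insulin signalling genes tested, 7 were higher and 0 lower. They included Foxo1 (2.19 on the log2 scale), the transcription factor that insulin restrains, the feedback inhibitors Socs3 (2.14), Socs2 (1.41) and Socs1 (0.81), the insulin receptor substrate Irs4 (1.83) and the leptin effector Stat3 (1.5). The median of the 28 was 0.15, against 0.00 over all genes tested. Of the 11 AgRP neuron markers tested, 9 were higher and 0 lower, with a median of 2.05. The markers that were not called were Bsx and Mc3r. Bsx, a homeobox factor, was at 10.8, 4.56, 5.65 and 6.42 (ad libitum fed) and 3.49 and 3.41 CPM (fasted) in the chosen nuclei (log2 difference 0.80, adjusted p = 0.183), and Ghsr, the ghrelin receptor, was too rare to be tested. Mc3r, a melanocortin receptor, differed by 1.01 (adjusted p = 0.0715) and Insr, the insulin receptor, by 0.12 (adjusted p = 0.542).

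Receptors for hormones and peptides split, with 8 of 43 higher and 9 lower and a median of −0.24. Beside Lepr, Ghr and Calcr the higher ones were the autoreceptor Npy2r (2.13), the corticotropin-releasing hormone receptor Crhr1 (1.07), the glucocorticoid and mineralocorticoid receptors Nr3c1 (0.86) and Nr3c2 (0.48), and the adrenergic receptor Adra1a (0.70). The lower ones were the serotonin receptors Htr2c (−1.06) and Htr1b (−0.96), the opioid receptors Oprk1 (−0.98) and Oprd1 (−0.94), the cannabinoid receptor Cnr1 (−0.97), the thyroid hormone receptor Thrb (−0.95), the prolactin receptor Prlr (−0.89), Igf1r (−0.61) and the orexin receptor Hcrtr2 (−0.60). Homeobox and other identity factors split as well, with 5 of 29 higher, among them Tbx3 (2.05) and Isl1 (1.0), and 6 lower, among them Foxp2 (−1.14), Lef1 (−1.05) and Nkx2-1 (−1.02).

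Genes of receptors and channels that set excitability gave more lower than higher calls in each of these lists. Lower calls were also the more frequent over all genes tested, with 3.14% higher and 3.72% lower. Of glutamate receptor subunits, 0 of 20 were higher and 7 lower, with Grm5 at −0.99 and Grik3 at −0.98. Of GABA-A receptor subunits, 1 of 13 was higher, Gabre at 1.96, and 5 were lower. Potassium channels gave 4 higher and 7 lower of 29, the higher ones being the leak channels Kcnk9 (1.43) and Kcnk2 (1.16) and the voltage-gated Kcnh8 (1.33) and Kcnc2 (0.79). Calcium, sodium and HCN channels gave 4 higher and 7 lower of 28, with Trpc4 at 1.13 and the ryanodine receptor Ryr3 at −0.89. Genes of cAMP signalling gave 1 higher and 5 lower of 24. Of the neuropeptide genes other than the rule's own, Sst was higher (0.82) and Tac1 (−0.90), Adcyap1 (−0.78) and Avp (−0.49) were lower of 23. Of 9 fast transmitter genes only Slc17a6 was called, at −0.98, and the vesicular GABA transporter Slc32a1 was at 30.1, 38.01, 97.4 and 84.6 (ad libitum fed) and 19.2 and 21.3 CPM (fasted) in the chosen nuclei and 24.7, 23.4, 94.3 and 92.1 (ad libitum fed) and 22.2 and 20.8 CPM (fasted) in other neurons. Dense core vesicle genes gave 2 higher and 1 lower of 25 and metabolic genes 1 and 0 of 27 (Ucp2, 0.85). A single call in a list of this length is near the shares of all genes. Clock genes gave 0 and 2 of 19, and the lists for endoplasmic reticulum folding, glucocorticoid response and FoxO targets 0 and 0. Immediate early genes of neuronal activity gave 2 and 1 of 48. Several counts were not the same for nuclei of the study's cluster against other neurons, given as a description. Over all 11060 genes tested there, 918 were higher and 1287 lower, more in both directions than for the chosen nuclei. The list counts of the cluster are to be read against these. There fast transmitter genes gave 1 higher and 5 lower of 8, neuropeptide genes 1 and 14 of 17, glutamate receptor subunits 0 and 11 of 20, potassium channels 5 and 13 of 27, dense core vesicle genes 5 and 6 of 25, metabolic genes 3 and 5 of 24, immediate early genes 8 and 3 of 37 and the endoplasmic reticulum list 6 and 0 of 22.

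Compared with POMC nuclei, Agrp-positive nuclei had more Corin, Otp, Calcr, Acvr1c and Ghr, and Lepr did not pass the test. The 455 Pomc-positive nuclei had at least 4 Pomc UMIs and lay outside the rule. Of 13026 genes, 313 (2.4%) were higher and 234 (1.8%) lower in Agrp-positive nuclei by the same test. With DESeq2 167 were higher and 129 lower. Lepr was at 101, 136, 80.4 and 107 (ad libitum fed) and 109 and 91.03 CPM (fasted) in POMC nuclei, and the log2 difference from them was 0.39 (standard error 0.35, adjusted p = 0.748). Lepr was lower in Agrp-positive than in POMC nuclei in ad libitum fed 2, 3 and 4, nearly equal in ad libitum fed 1 and higher in both fasted libraries. Within the study's cluster it was higher than in POMC nuclei in ad libitum fed 1, 3 and 4 too, with 133, 119, 166 and 146 (ad libitum fed) and 592 and 595 CPM (fasted), and the log2 difference was 1.12 (standard error 0.34, adjusted p = 0.0685). Of leptin and insulin signalling genes 1 of 28 was called, Foxo1 at 2.25, a share near the 2.4% higher of all genes. Corin at 5.61, Pdgfd at 3.74, Otp at 3.56, Calcr at 3.03, Acvr1c at 2.71, Kcnk9 at 2.68 and Ghr at 1.71 were higher than in POMC nuclei. Otp and Corin were at or near 0 in the POMC nuclei, with 0, 2.77, 7.69 and 4.29 (ad libitum fed) and 0 and 0 CPM (fasted) for Otp.

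Lower than in POMC nuclei were the neuropeptide Y receptors Npy1r (−2.84) and Npy5r (−2.07), the opioid receptor Oprm1 (−1.26) and Prlr (−2.05), with the factors Nkx2-1 (−2.0) and Tbx3 (−1.31) and the peptides Cartpt (−2.64) and Prok2 (−2.03). The list counts are to be read against the 2.4% higher and 1.8% lower of all genes. Receptors gave 6 higher and 8 lower of 39, neuropeptide genes 6 and 3 of 21 and potassium channels 5 and 1 of 28. Counts were 4 and 0 of 24 for cAMP genes, 3 and 4 of 24 for identity factors and 3 and 1 of 11 for AgRP neuron markers. Glutamate receptor subunits gave 3 and 1 of 20, GABA-A subunits 2 and 1 of 13, and calcium, sodium and HCN channels 4 and 4 of 27. For nuclei of the study's cluster against POMC nuclei outside it, as a description, 450 were higher and 531 lower of all 11560 genes. Neuropeptide genes gave 0 and 6 of 19, potassium channels 5 and 6 of 27 and cAMP genes 3 and 3 of 21. Glutamate receptor subunits gave 4 and 6 of 20 and receptors 7 and 12 of 28. The direction of the neuropeptide list turned, as did the balance over all genes. Slc32a1 was 1.41 higher in Agrp-positive than in POMC nuclei, whose values were 11.2, 2.77, 48.7 and 36.1 (ad libitum fed) and 0 and 2.46 CPM (fasted).

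Fasting was compared in several ways, because the series holds 1 fasted pool. With the 2 ad libitum fed pools against that pool, edgeR called 0 of 12994 genes (0%), the lowest adjusted p was 0.976, 408 genes had an unadjusted p under 0.05, and DESeq2 called 11. Between them, the ad libitum fed pools differed widely, which sets the spread of that test. Genes were therefore also asked to differ in the same direction from each ad libitum fed pair, over the 6 libraries. By that measure 766 genes (5.9%) were higher and 585 (4.5%) lower in the fasted Agrp-positive nuclei, and with DESeq2 224 were higher and 242 lower. The spread behind it is that between tubes of a pool. The same count, with each fed pair in turn as the one apart, gave 537 genes higher and 255 lower for ad libitum fed 1+2, and 2022 and 946 for 3+4. For nuclei of the study's cluster, 697 of 10478 genes (6.65%) were higher and 558 (5.33%) lower in the fasted libraries, against 467 and 227 for 1+2 and 1343 and 438 for 3+4. Leaving out single libraries took the 1351 genes to 817 (without ad libitum fed 1) at the lowest, and thinning every nucleus to 2000 UMIs took them to 414. Log2 differences from ad libitum fed 1+2 and from ad libitum fed 3+4 are given below as from 1+2 and from 3+4. The distance from the nearer fed pair was larger than the distance between the pairs for 668 of the 766 higher and 355 of the 585 lower genes.

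The leptin receptor was among the genes that stood farthest from both fed pairs. Lepr (chromosome 4, 101717404 to 101815352, plus strand) was at 102, 80.6, 73.9 and 61.97 CPM in ad libitum fed libraries 1 to 4 and 402 and 391 in the fasted ones, from 85, 53, 170, 164, 460 and 459 UMIs. Both fasted libraries lay above all fed ones, and the fed libraries lay close together. The log2 difference was 2.10 from 1+2 and 2.42 from 3+4 (adjusted p = 9.15e-13 and 7.08e-18, edgeR). In nuclei of the study's cluster Lepr stood at 133, 119, 166 and 146 (ad libitum fed) and 592 and 595 CPM (fasted), and both fasted libraries lay above all fed ones there too. Other neurons were at 24.2, 23.6, 19.3 and 20.1 (ad libitum fed) and 28.3 and 30.6 CPM (fasted), and oligodendrocyte-like nuclei held 0 to 3 Lepr UMIs per library.

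The share of nuclei with any Lepr UMI was higher in fasting with and without equal depth. It was 34.6% of the 743 fed members (95% exact interval 31.2% to 38.1%, median depth 7424 UMIs) and 75.7% of the 292 fasted ones (70.3% to 80.5%, 7290 UMIs). After thinning every nucleus to 2000 UMIs, which left out 1 fed member, it was 14.8% and 50.0%, and by library 20.4%, 17.3%, 10.8% and 13.9% in the fed and 50.0% in each fasted one. The fed members held a lower share of nuclei of the study's cluster, 326 of 743 against 192 of 292. Among members in the cluster the thinned shares were 25.2% and 68.2%. Among oligodendrocyte-like nuclei, which should lack the gene, it was 1.053% of 285 fed (1958 UMIs) and 0.430% of 931 fasted nuclei (2534 UMIs), and among other neurons 10.1% and 12.5%. These intervals cover counting error only.

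**Figure D3:**
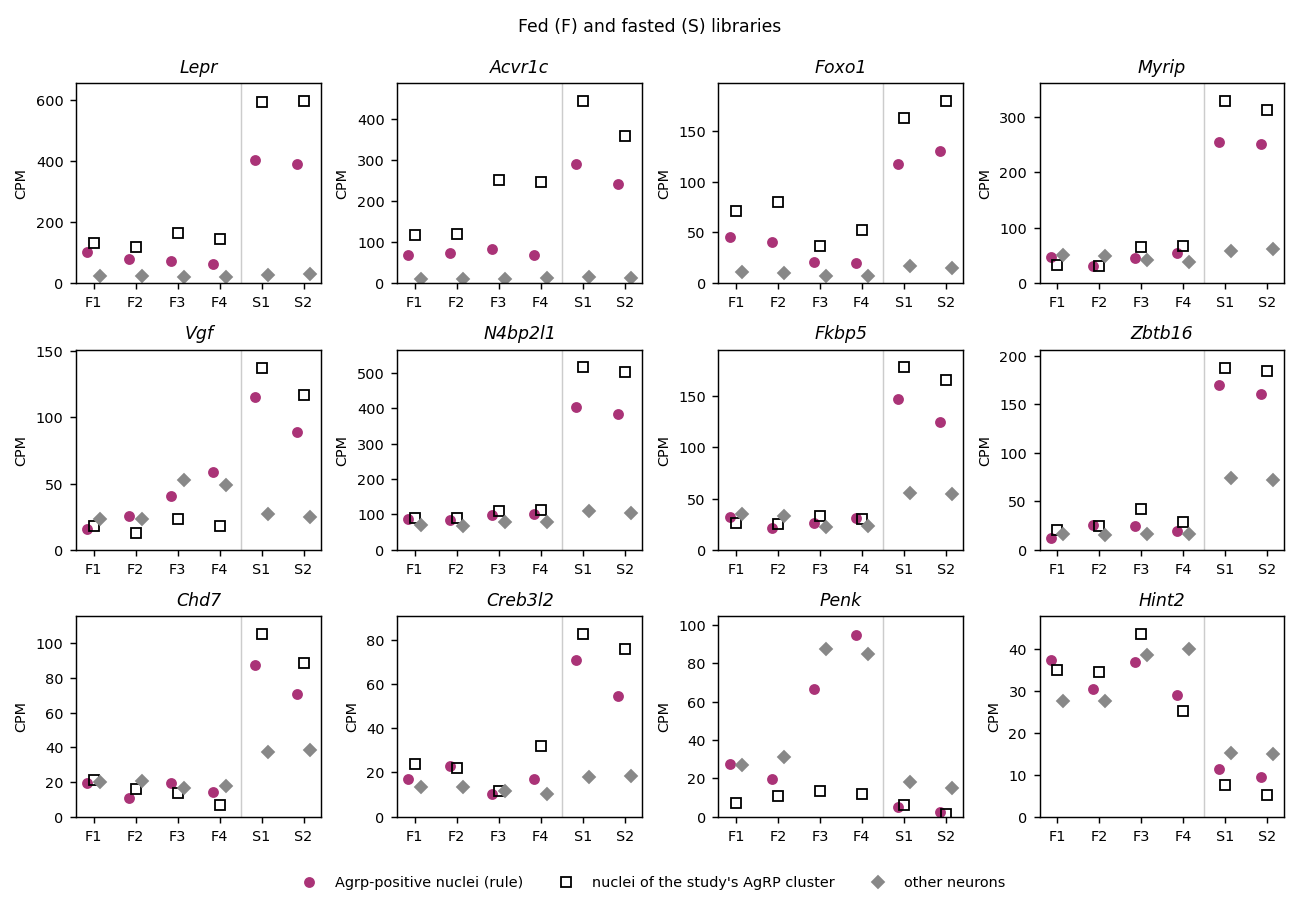
CPM (y axis) of 12 genes in ad libitum fed (F1 to F4) and fasted (S1, S2) libraries, summed over Agrp-positive nuclei (circles), nuclei of the study's AgRP cluster (squares) and other neurons (diamonds). Circles of the fasted libraries lie above all 4 fed ones for Lepr, Acvr1c, Foxo1, Myrip, Vgf, N4bp2l1, Fkbp5, Zbtb16, Chd7 and Creb3l2 and below them for Penk and Hint2.

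Other receptors and transducers of hormones were also higher in fasting than in both fed pairs. Acvr1c differed by 1.91 from 1+2 and 1.67 from 3+4 with no overlap between groups, and Ghr by 1.12 from 1+2 and 1.93 from 3+4. The differences from 3+4 were smaller in nuclei of the study's cluster. Acvr1c stood there at 117, 119, 251 and 246 (ad libitum fed) and 442 and 357 CPM (fasted), 1.77 from 1+2 and 0.56 from 3+4 on the log2 scale, and Ghr at 1545, 1536, 1278 and 1249 (ad libitum fed) and 2717 and 2737 CPM (fasted), 0.84 from 1+2 and 0.98 from 3+4. Foxo1 stood at 45.7, 41.1, 20.9 and 19.6 CPM in ad libitum fed libraries 1 to 4 and 117 and 130.4 in the fasted ones, a log2 difference of 1.5 from 1+2 and 2.48 from 3+4. Both fasted values lay above all fed ones, and in nuclei of the study's cluster it was at 71.1, 79.9, 36.8 and 51.98 (ad libitum fed) and 163 and 179 CPM (fasted). The counts of this and the following lists are to be read against the 5.9% higher and 4.5% lower of all genes tested. Medians are of the difference from the nearer pair, taken as 0 where the pairs disagree in sign. The median of the 28 leptin and insulin signalling genes was 0.03, against 0 over all genes. Of these 28 genes 8 were higher and 0 lower against both fed pairs. Among them were Irs2 (1.39 from 1+2 and 0.99 from 3+4), an insulin receptor substrate, Ptpn1 (1.26 from 1+2 and 0.52 from 3+4), a phosphatase that dampens leptin and insulin receptor signalling, and Stat3 (0.49 from 1+2 and 1.08 from 3+4). In nuclei of the study's cluster 4 of the 28 were higher and 0 lower, and Ptpn1 and Stat3 were not called. Socs3 did not stand apart from both pairs, with 14.4, 19.8, 3.48 and 3.40 (ad libitum fed) and 5.24 and 6.82 CPM (fasted). Of 39 receptors 5 were higher, namely Lepr, Ghr, the BDNF receptor Ntrk2, Nr3c1 and Insr (0.5 from 1+2 and 0.46 from 3+4). Lower were 2, a share near that of all genes, among them Htr2c (−1.10 from 1+2 and −1.39 from 3+4). In the study's cluster neither Insr (0.46 from 1+2 and 0.42 from 3+4) nor Htr2c (−0.44 from 1+2 and −0.57 from 3+4) was called. Npy2r and Mc3r were not called in the chosen nuclei, with 20.4, 27.4, 29.99 and 32.5 (ad libitum fed) and 27.96 and 22.2 CPM (fasted) for Npy2r and 10.8, 12.2, 6.09 and 6.05 (ad libitum fed) and 1.75 and 6.82 CPM (fasted) for Mc3r. Of the 11 AgRP markers 5 were higher and 0 lower, with a median of 0.29. The study's cluster gave 4 and 0 of 10, with a median of 0. Corin differed by 0.72 from 1+2 and 2.61 from 3+4, and by 0.47 from 1+2 and 1.43 from 3+4 in the cluster, and Asb4 differed by 1.03 from 1+2 and 0.82 from 3+4 in the chosen nuclei. Otp was at 42.1, 57.8, 40.4 and 37.4 (ad libitum fed) and 60.3 and 59.7 CPM (fasted) and Bsx at 10.8, 4.56, 5.65 and 6.42 (ad libitum fed) and 3.49 and 3.41 CPM (fasted), and neither was called.

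Some genes of the secretory path of peptides were higher in fasting and others lower. Myrip, which ties secretory granules to the actin cytoskeleton (chromosome 9, 120301513 to 120474841, plus strand), was at 46.9, 31.9, 45.6 and 54.03 CPM in ad libitum fed libraries 1 to 4 and 254 and 251 in the fasted ones, against 50.8, 50.2, 41.2 and 39.2 (ad libitum fed) and 58.7 and 61.5 CPM (fasted) in other neurons. The log2 difference was 2.65 from 1+2 and 2.20 from 3+4, and fed Agrp-positive nuclei lay within the range of other neurons or near it. Vgf, a granin-like peptide precursor, was at 15.6, 25.9, 40.9 and 58.9 CPM in ad libitum fed libraries 1 to 4 and 115 and 88.6 in the fasted ones and at 18.1, 12.5, 23.4 and 18.4 (ad libitum fed) and 138 and 117 CPM (fasted) in nuclei of the study's cluster. Its difference was 2.33 from 1+2 and 0.88 from 3+4, with the fed pairs themselves apart in the chosen nuclei but close together in the cluster. The list counts are to be read against the 5.9% higher and 4.5% lower of all genes tested. Of 25 dense core vesicle genes 5 were higher, with Sv2c, a vesicle glycoprotein, at 1.87 from 1+2 and 1.32 from 3+4. Pcsk1, a prohormone convertase, was at 0.84 from 1+2 and 0.58 from 3+4. Lower were 3, the granins Chga and Chgb and the convertase inhibitor Pcsk1n (−1.57 from 1+2 and −3.52 from 3+4), and these were also higher in ad libitum fed 3+4 than in 1+2. In the endoplasmic reticulum list 4 of 23 were higher, the membrane-bound factors Creb3l2 (1.68 from 1+2 and 2.05 from 3+4) and Atf6, the sensor Ern1 (1.22 from 1+2 and 1.48 from 3+4) and the coat protein Sec24d (1.56 from 1+2 and 1.49 from 3+4), and 3 were lower, the chaperones Hspa5, Hsp90b1 and Manf. Hspa5 stood at 86.6, 94.3, 374 and 389 (ad libitum fed) and 50.7 and 41.8 CPM (fasted), and ad libitum fed 3+4 were higher than 1+2 in 16 of the 23 genes.

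Genes that respond to glucocorticoids, the adrenal hormones that rise in fasting, were higher in 5 of 11 tested and lower in 0, with a median of 0.81. Zbtb16, a zinc finger transcription factor, was at 12.02, 25.9, 24.8 and 19.3 CPM in ad libitum fed libraries 1 to 4 and 169 and 160.2 in the fasted ones, a log2 difference of 3.18 from 1+2 and 2.78 from 3+4. It was also higher outside the Agrp-positive nuclei, at 16.7, 15.1, 16.6 and 16.4 (ad libitum fed) and 73.97 and 72.05 CPM (fasted) in other neurons and at 20.1, 25.7, 0 and 0 (fed) and 316 and 268 CPM (fasted) in oligodendrocyte-like nuclei. Fkbp5, a co-chaperone of the glucocorticoid receptor (chromosome 17, 28399094 to 28517527, minus strand), was at 32.5, 21.3, 26.1 and 31.4 CPM in ad libitum fed libraries 1 to 4 and 147 and 124 in the fasted ones and at 34.99, 33.5, 22.7 and 22.98 (ad libitum fed) and 55.6 and 54.3 CPM (fasted) in other neurons. Its difference was 2.30 from 1+2 and 2.10 from 3+4. E230001N04Rik, a long noncoding RNA that starts just upstream of Fkbp5 on the other strand (28522720 to 28525398), differed by 2.85 from 1+2 and 1.85 from 3+4. In nuclei of the study's cluster E230001N04Rik differed by 2.62 from 1+2 and 1.10 from 3+4, and the fed pairs lay 1.52 apart. The other members higher were Errfi1 (1.93 from 1+2 and 1.68 from 3+4), an inhibitor of EGF receptors, Klf9 and the kinase Sgk1 (0.82 from 1+2 and 0.86 from 3+4). Errfi1 and Sgk1 are also in the list of immediate early genes. In nuclei of the study's cluster 5 of 8 were higher.

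The remaining genes named by size had varied roles. N4bp2l1 was at 87.8, 85.2, 98.2 and 102 CPM in ad libitum fed libraries 1 to 4 and 403 and 384 in the fasted ones, 2.18 from 1+2 and 1.84 from 3+4 on the log2 scale, and its 4 fed values lay within a narrow range. Fam107b stood at 18.03, 13.7, 3.48 and 6.80 CPM in ad libitum fed libraries 1 to 4 and 83 and 82.7 in the fasted ones. Chd7, a chromatin remodeller, differed by 2.35 from 1+2 and 2.13 from 3+4 and Ell2, a transcription elongation factor, by 2.25 from 1+2 and 1.76 from 3+4. Alkal2, a ligand of the receptor kinase ALK, differed by 1.83 from 1+2 and 2.12 from 3+4. In nuclei of the study's cluster Alkal2 differed by 1.96 from 1+2 and 1.12 from 3+4. Col18a1, a basement membrane collagen, differed by 1.89 from 1+2 and 1.70 from 3+4, and Lancl3 by 1.76 from 1+2 and 1.89 from 3+4. Gm3294, a predicted gene, was at 9.62, 9.12, 4.35 and 10.2 (ad libitum fed) and 35.8 and 32.4 CPM (fasted). In all of these both fasted libraries were above all 4 fed ones.

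**Figure D4:**
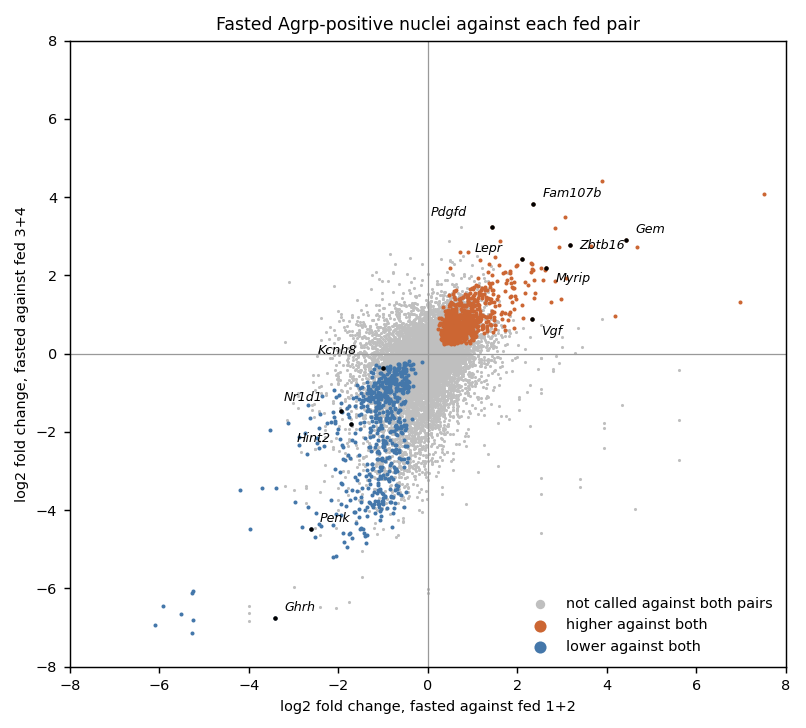
Log2 difference of fasted Agrp-positive nuclei from ad libitum fed 1+2 (x axis) and from 3+4 (y axis) for the 12994 genes tested. Orange points (766) were higher and blue points (585) lower against both pairs, grey points were not called against both, and named genes are in black. Both differences share the fasted libraries, and many blue points lie farther from 3+4 than from 1+2.

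Neuropeptide genes were lower in fasted Agrp-positive nuclei wherever they were called, but most of the list also differed between the fed pools. Of 21 tested, 0 were higher and 11 lower against both pairs, with a median of −1.86, and ad libitum fed 3+4 were higher than 1+2 in 19 of 21. Penk, the enkephalin precursor, was at 27.7, 19.8, 66.5 and 94.8 CPM in ad libitum fed libraries 1 to 4 and 5.24 and 2.56 in the fasted ones, and at 27, 31, 87.3 and 84.9 (ad libitum fed) and 18.2 and 14.7 CPM (fasted) in other neurons. Ghrh, the growth hormone-releasing hormone, was at 13.2, 6.08, 109 and 79.7 (ad libitum fed) and 1.75 and 0 CPM (fasted), with 2 and 0 UMIs in the fasted libraries, and in the study's cluster it was not called against 1+2. The tachykinins Tac1 and Tac2 were at 30.1, 27.4, 103 and 113 (ad libitum fed) and 10.5 and 3.41 CPM (fasted) and 15.6, 9.12, 36.5 and 66.9 (ad libitum fed) and 2.62 and 1.70 CPM (fasted). In each case the order of the pairs of libraries was the same in other neurons, with 3+4 highest and fasted lowest. Transcripts of POMC neurons followed that order in the chosen nuclei too. Pomc, Cartpt and Prdm12 summed to 149, 79.1, 629 and 1072 CPM in ad libitum fed 1 to 4 and to 35.8 and 41.8 in the fasted libraries, with Cartpt the most abundant in all but fed 2 and with Prdm12 at 0 in fed 1, fed 2 and fasted 2. Their part in the result was not tested. In nuclei of the study's cluster Penk was at 6.97, 10.97, 13.4 and 11.7 (ad libitum fed) and 6.26 and 1.29 CPM (fasted) and Tac1 at 18.1, 20.4, 18.4 and 21.8 (ad libitum fed) and 2.50 and 1.29 CPM (fasted), below the values of ad libitum fed 3+4 in all chosen nuclei, and 10 of the 12 neuropeptide genes tested there were lower.

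The other lower genes named by size had varied roles. Hint2, a mitochondrial nucleotide hydrolase, was at 37.3, 30.4, 36.9 and 29.1 CPM in ad libitum fed libraries 1 to 4 and 11.4 and 9.38 in the fasted ones and was even between the fed pairs, with −1.72 from 1+2 and −1.79 from 3+4. It stood at 27.6, 27.6, 38.5 and 39.9 (ad libitum fed) and 15.2 and 15.01 CPM (fasted) in other neurons and 34.9, 34.5, 43.5 and 25.2 (ad libitum fed) and 7.51 and 5.15 CPM (fasted) in nuclei of the study's cluster. Aldoc, a glycolytic aldolase, was at 26.4, 30.4, 100.4 and 96.7 (ad libitum fed) and 7.86 and 2.56 CPM (fasted), and Dbi, the acyl-CoA-binding protein, at 30.1, 24.3, 70.4 and 77.8 (ad libitum fed) and 5.24 and 6.82 CPM (fasted). Gpx1, a glutathione peroxidase, was at 16.8, 18.2, 39.99 and 54.8 (ad libitum fed) and 3.49 and 2.56 CPM (fasted), Dpm3, of dolichol-linked mannose synthesis, at 58.9, 59.3, 113 and 115 (ad libitum fed) and 13.98 and 16.2 CPM (fasted), and Smim18, a small membrane protein, at 19.2, 44.1, 55.2 and 51.8 (ad libitum fed) and 5.24 and 12.8 CPM (fasted). In the study's cluster Smim18 lost the call against 1+2. For these 5 genes ad libitum fed 3+4 lay above 1+2 and the fasted libraries lay lowest, in other neurons as in Agrp-positive nuclei.

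The counts of the following lists are to be read against the 5.9% higher and 4.5% lower of all genes tested. Clock genes gave 1 higher, a share near that of all genes, and 3 lower of 19. Arntl, which drives the clock's positive arm, was at 61.3, 42.6, 48.2 and 38.5 (ad libitum fed) and 109 and 80.1 CPM (fasted), a difference of 0.83 from 1+2 and 1.0 from 3+4. Its repressors Nr1d1 (−1.94 from 1+2 and −1.48 from 3+4) and Nr1d2 (−1.09 from 1+2 and −0.66 from 3+4) and the clock output Dbp (−1.11 from 1+2 and −0.97 from 3+4) were lower, and the time of collection was not among the labels. In nuclei of the study's cluster the counts were 1 and 5 of 13. Channels moved both ways. Of 28 potassium channels 6 were higher, Kcnc2 at 0.86 from 1+2 and 1.21 from 3+4 and Kcnk9 at 0.90 from 1+2 and 0.84 from 3+4 among them, and 6 lower. Kcnh8 stood at 169.5, 170.3, 115 and 87.3 CPM in ad libitum fed libraries 1 to 4 and 91.7 and 78.4 in the fasted ones, −1.0 from 1+2 and −0.37 from 3+4, with ad libitum fed 4 below fasted 1, and it did not overlap in nuclei of the study's cluster, at 298, 280.5, 234 and 219.6 (ad libitum fed) and 88.8 and 81.1 CPM (fasted). Kcnk9 was not called against 3+4 in the cluster (−0.08). Of 27 calcium, sodium and HCN channels 7 were higher and 2 lower, with Cacna1g, a T-type calcium channel, at −1.24 from 1+2 and −1.10 from 3+4. Genes of cAMP signalling gave 5 higher and 2 lower of 24, with Pde10a at 1.43 from 1+2 and 1.09 from 3+4, Adcy2 at 1.02 from 1+2 and 1.22 from 3+4 and Pde7b at −1.16 from 1+2 and −1.07 from 3+4. Cacna1g and Pde7b were not called in the study's cluster. Glutamate receptor subunits gave 3 and 5 of 20, GABA-A subunits 1 and 4 of 13, FoxO targets 3 and 0 of 13, fast transmitter genes 0 and 2 of 9 and metabolic genes 0 and 2 of 27. Identity factors gave 1 and 4 of 24. The study's cluster gave 5 and 2 of 19 for glutamate receptor subunits, whose balance turned, 2 and 1 of 12 for FoxO targets, 0 and 0 of 10 for identity factors, 0 and 0 of 5 for fast transmitter genes and 2 and 2 of 22 for metabolic genes. The immediate early genes gave 13 and 0 of 48, with a median of 0.31. Of glial lists only the oligodendrocyte markers had a call, Mog, which was at 0, 0, 5.65 and 2.65 (ad libitum fed) and 9.61 and 12.8 CPM (fasted). The 6 markers summed to 42.1, 50.2, 72.2 and 48.0 CPM in the fed and 73.4 and 118 in the fasted libraries, and their part in the results was not tested.

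Whether fasting moved a gene differently in Agrp-positive nuclei and other neurons was tested as an interaction of class and condition over pools. The pool was a block, so that differences shared by all neurons of a pool drop out. Fasted-to-fed log2 differences are compared with their sign here and below. A gene that fell farther in Agrp-positive nuclei than in other neurons, such as Penk, is therefore called smaller. The fasted arm is 1 pool, so that the spread behind these p-values and standard errors comes from the 2 ad libitum fed pools, with 1 residual degree of freedom per gene that edgeR moderated across genes. Of 12994 genes, 128 (0.985%) had a larger and 53 (0.408%) a smaller fasted-to-fed difference in Agrp-positive nuclei at an adjusted p under 0.05. The 5 genes with the lowest p were Lepr, N4bp2l1, Vgf, Arhgap26_ENSMUSG00000118193 and Myrip. For Lepr the difference exceeded that in other neurons by 1.93 (standard error 0.13, adjusted p = 3.15e-04) on the log2 scale. The excess was 1.58 (standard error 0.12, adjusted p = 5.33e-04) for N4bp2l1, 2.02 (standard error 0.17, adjusted p = 7.21e-04) for Vgf and 1.97 (standard error 0.19, adjusted p = 0.00123) for Myrip. In other neurons Vgf was at 23.7, 23.1, 52.5 and 48.7 (ad libitum fed) and 27.4 and 25.2 CPM (fasted), so that the fasted values lay above ad libitum fed 1+2 and below 3+4. The gene model listed under the symbol Arhgap26 with its identifier differed by 1.66, from 58.9, 68.4, 32.2 and 36.7 (ad libitum fed) and 173 and 150.0 CPM (fasted) in the chosen nuclei. It shares its symbol with another gene model, so that reads may be split between them. The list counts that follow are to be read against the shares of all genes called by this test, given above.

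By function, the fasted-to-fed difference was larger in Agrp-positive nuclei for 3 of 11 AgRP markers (Lepr, Acvr1c at 1.52 and Asb4 at 0.96), 3 of 28 leptin and insulin signalling genes (Foxo1 at 1.23, Irs2 at 1.08 and Socs2 at 1.01), 4 of 25 dense core vesicle genes (Vgf, Pcsk1 at 1.09, Cpe at 0.95 and Sv2c at 0.87), 3 of 11 glucocorticoid-responsive genes (Fkbp5 at 1.20, Errfi1 at 1.18 and Zbtb16 at 0.85) and 2 of 23 endoplasmic reticulum genes. Potassium channels gave 2 of 28 larger (Kcnk9 at 1.08, Kcnc2 at 0.98) and 1 smaller (Kcnh8 at −0.78). Of receptors 2 of 39 were larger and 1 smaller, Htr2c at −1.0. Of neuropeptide genes 0 of 21 were larger and 1 smaller, Penk at −1.96. Identity factors gave 0 and 3 of 24, cAMP genes 2 and 1 of 24, clock genes 0 and 0 of 19 and immediate early genes 10 and 0 of 48. Of the 10 lower genes named by size, Penk was the only one with a called interaction. The 181 genes called became 62 without fasted 1 and 581 without ad libitum fed 2. In nuclei of the study's cluster 244 of 10478 genes (2.33%) had a larger and 151 (1.44%) a smaller difference. Of the 128 larger genes 102 were also called there, but of the 53 smaller ones only 10. Clock genes gave 1 larger and 5 smaller of 13 in the cluster, the smaller ones including Nr1d2 (−1.28) and Dbp (−1.64), potassium channels 1 and 3 of 26, identity factors 0 and 0 of 10, and leptin and insulin genes 1 larger of 28, Irs2. Foxo1 (0.65) and Zbtb16 (0.52) lost the call there, Acvr1c and Ghr fell to 0.84 and 0.73, and Vgf there reached 3.26, as a description.

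Promoters of the raised genes were searched for short motifs, since cAMP, FoxO factors and glucocorticoids act through known sequences. The windows were the 250 bases before each gene's start in RefSeq (GRCm38.p6), on both strands. The cAMP response element TGACGTCA was present in 1.77% of 27025 promoters, 3.19% of the 9679 matched genes tested, 3.59% of 585 matched genes higher and 3.94% of 431 lower in fasting. Of the 17 raised genes named by size or by interaction, 12 had a promoter in the table and only Ell2 held the element. It is shown because it ties a named gene to the motif, at chr13:75707275-75707304 on the plus strand, with the element in capitals, 198 to 191 bases before the RefSeq start. The GENCODE gene model that gave the gene coordinates printed here, which is not the annotation used for the counts, starts earlier, at 75706757. This stretch lies within that model.
Ell2: aagacgagacaTGACGTCAgataagattaa
Ell2 RNA stood at 9.62, 12.2, 13.04 and 14.4 CPM in ad libitum fed libraries 1 to 4 and 51.5 and 51.1 in the fasted ones and 14.5, 15.8, 12.1 and 12.1 (ad libitum fed) and 20.2 and 21.1 CPM (fasted) in other neurons. The FoxO motif GTAAACA was in 2.59% of the genes tested, 4.10% of those higher and 2.09% of those lower, and in no raised gene named by size or by interaction. The glucocorticoid response element was in 3 of all promoters and 1 of the genes higher. A match describes the letters in this window only.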

How the data were processed

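RNA was counted in the nuclei of 6 libraries, 2 of fasted and 4 of ad libitum fed mice. The deposited values are raw UMI counts per gene and nucleus, made by the authors with Cell Ranger 5.0.1 (submitters' processing notes) on mm10 with Ensembl genes, from which Gm28040 had been removed. The members and the gene lists were chosen with earlier results of these data known. Nuclei were summed per pool or library and tested with edgeR 4.0.16 (quasi-likelihood, TMM, limma 3.58.1, R 4.3.3), keeping genes with at least 10 UMIs in at least 2 libraries, with Benjamini-Hochberg adjustment over all genes tested. DESeq2 1.42.0 was an alternative, with others given in the closing section. Fold changes are log2, and CPM are UMIs per 1000000 of the summed nuclei. Fed libraries were paired as 1+2 and 3+4, whose deviations from the fed mean correlated across genes (0.34 and 0.76) while those across pairs ran from −0.78 to −0.76. Same-numbered fed and fasted libraries did not deviate together. Named genes were, against other neurons, the 15 largest and 8 lowest called differences with at least 20 CPM and the same direction in 6 libraries, and, for fasting, the 15 higher and 10 lower called genes farthest from the nearer fed pair with at least 30 CPM and farther than the pairs from each other, without immediate early, ribosomal or mitochondrial genes, with 5 genes by interaction p, genes of the lists and a few hormone receptors and factors. Doublets were marked with scrublet in scanpy 1.11.5 (the top 5% per library) and kept. Oligodendrocyte-like nuclei had at least 10 UMIs of their markers and at most 1 of the neuronal genes. A few genes of the lists are not reported here by name. The calculations were tested on simulated data.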

Additional observations from a re-analysis of the deposited data

Results flagged for a closer look

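For 21 of the 54 named genes tested the fasted-to-fed difference was called as not the same in Agrp-positive nuclei as in other neurons, by the interaction test described above (edgeR, adjusted p under 0.05 over 12994 genes). The fasted arm is 1 pool, and some of these genes were named for their fasted values or their interaction p, so that the number is a description. It is to be read against the shares of all genes called by that test, given above. Each value is the log2 difference in Agrp-positive nuclei minus that in other neurons. The excess was largest for Alkal2 (2.52), Fam107b (2.46) and Vgf (2.02). Next came Myrip (1.97), Lepr (1.93), Pgr15l (1.87), Arhgap26_ENSMUSG00000118193 (1.66), N4bp2l1 (1.58), Pdgfd (1.58) and Acvr1c (1.52). Genes of transcription and signalling followed, with Ghr (1.42), Creb3l2 (1.41), Ell2 (1.34), Chd7 (1.24), Foxo1 (1.23) and Fkbp5 (1.20). Lancl3 stood at 1.33, Col18a1 at 1.25 and Zbtb16 at 0.85. The value was negative for Penk (−1.96), which fell farther in Agrp-positive nuclei than in other neurons, and for Arpp21 (−0.95). Penk rests on 6 and 3 UMIs in the fasted Agrp-positive nuclei. Within the study's cluster the calls of Arpp21 (−0.19, adjusted p = 0.817), Zbtb16 (0.52, adjusted p = 0.254) and Foxo1 (0.65, adjusted p = 0.115) were lost, Penk was not tested, and the other 17 were called. The rule's mixture of nuclei was not the same in the 3 pools (32.1% to 68.5% of members per library were in the study's cluster), and its part in these differences was not tested. Of 58 values tested for a fed library far from the other 3 (Dixon's 95% critical value), none was past that limit, where about 1 in 20 is expected by chance. The fed libraries form pairs that differ, which leaves little room for 1 library to stand far from the other 3, so that this says little about outliers.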

How the results depend on the processing

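Counts of called genes moved more than directions. Of 932 alternatives for single named genes, 884 kept direction and side of the threshold, 33 lost and 8 gained the call, and 7 reversed. Reversals were Npy2r in fasted against the nearer pair (−0.13 without ad libitum fed 1 and −0.088 without fasted 1, up to 0.29 without ad libitum fed 2, −0.65 with Agrp at 5 or more, −0.36 in the study's cluster), Mc3r (0.039 without fasted 1, −1.86 without fasted 2), Socs3 (−1.38 in the study's cluster) and Otp (−0.17 thinned), none of which was called. Calls lost without a single library were Alkal2 and Ghrh (ad libitum fed 1), Smim18 (ad libitum fed 2 and fasted 1), Tac2 (ad libitum fed 1, fasted 1 or fasted 2), Ghrh (fasted 2) and Insr (any of 4 libraries), with unchanged sign. The cause was not tested. The 918 genes against other neurons became 1896 with no filter on low counts, 1809 with Agrp at 5 or more, 2205 in the study's cluster, 2099 over 6 libraries and 1520 without ad libitum fed 3+4, an alternative chosen after seeing the data, and ran from 790 to 951 without each library. The 547 genes against POMC nuclei became 296 with DESeq2, 997 with no filter, 981 in the study's cluster, 338 thinned to 2000 UMIs and 938 over 6 libraries, and 435 to 538 without each library. For fasted against fed pools the 0 genes became 11 with DESeq2, 361 with no filter, 27 over 6 libraries, and 5079 and 5559 with the fed libraries paired 1+3 and 2+4 or 1+4 and 2+3, which puts the fed pools' difference within a pair, and stayed at 0 without each library. The 1351 genes apart from both fed pairs became 466 with DESeq2, 445 with Agrp at 5 or more, 414 thinned, and 817 to 1230 without each library, lowest without ad libitum fed 1 (817) and fasted 2 (838). The 181 genes of the interaction became 53 with DESeq2, 406 with no filter, 337 with Agrp at 5 or more, 395 in the study's cluster, 695 over 6 libraries, 1559 and 1251 with the other pairings, 378 with 5 or more UMIs of the neuronal genes in other neurons, and 62 to 581 without each library (62 without fasted 1, 581 without ad libitum fed 2). With a replicate block over 6 libraries the fasted genes numbered 2312 and the interaction 499. The numbers do not pair the libraries, however (correlations of −0.029 to 0.029 between fed and fasted libraries). The share of neurons that were Agrp-positive, 2.98%, became 1.26% under the stricter rule, 2.05% by the study's list and 0.791% after thinning, and ran from 2.81% to 3.26% without each library. Genes under 10 UMIs in most libraries, such as Ghsr, were beyond this depth.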
